A study of Mus musculus with 4 samples.

Results

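The genes described here encode the subunits of the oxidative phosphorylation system, the chain of enzymes in the inner mitochondrial membrane that passes electrons to oxygen and makes ATP. They were chosen by symbol alone, as every array probe whose single gene symbol starts with Nduf, Sdha to Sdhd, Uqcr, Cox4, Cox5, Cox6 (except Cox6a2), Cox7, Cox8 or Atp5. The rule found 134 of the 45281 probes, for 86 of 19057 named genes. Of the 86 genes, 77 encode subunits of complexes I to V or a protein named with them, 8 encode Ndufaf assembly factors of complex I, and 1 is a pseudogene, Ndufs5-ps. The signal was above the array background on at least 1 array for 119 of the probes and 81 of the genes, and on all 4 arrays for 77 of the genes. Where a gene has several probes, as 35 do, it is represented by its brightest probe over all 4 arrays, and other probes are given for some genes only. Among genes without them below, a further probe differs in sign in at least 1 comparison for Atp5a1, Atp5k, Sdhc, Ndufaf4, Ndufaf8 and others.

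RNA was measured on 4 single-colour bead arrays of marginal zone macrophages, phagocytes at the edge of the splenic white pulp, from BXD2 mice, a recombinant inbred strain with lupus-like autoimmunity. The groups were BXD2-Ifnar-/- mice, which lack the type I interferon receptor, given PBS (1 array), BXD2 mice given 25 µg sLTβR-Fc intravenously, a soluble decoy receptor that binds lymphotoxin (1 array), and BXD2 mice given PBS (2 arrays, called control 1 and control 2). All mice were 2.5 months old and were killed 10 hours after the injection, each array holds cells pooled from 2 mice, and the sorted cells were SIGN-R1+, F4/80-, I-Ab- and low for CD11b. The design has no array of mice given a control Fc protein, and the labels do not say whether the control arrays came from separate mice, so the spread behind every p-value is that between these 2 arrays and may be technical.

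Complexes I (NADH dehydrogenase) and II (succinate dehydrogenase) feed electrons to ubiquinone, complex III (cytochrome bc1) hands them to cytochrome c, and complex IV (cytochrome c oxidase) gives them to oxygen. Complexes I, III and IV pump protons, and complex V, the ATP synthase, uses the returning protons to make ATP. All subunits of complex II and most of the others are encoded in the nucleus, while a few central subunits of the other complexes are encoded in mitochondrial DNA. Macrophages shift between oxidative phosphorylation and glycolysis as they are activated, and many nuclear subunit genes are known targets of NRF1, of the ETS family factor GABP (also called NRF2) and of YY1.

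The promoters of the subunit genes were set beside those of all genes because these factors are known to act there. RefSeq windows of 250 bases before to 50 bases after the start (build GRCm38.p6) were found for 65 of the 77 subunit genes. The NRF1 motif, GCGC followed by any base and TGCGC, read on both strands as were the other motifs, was present in the windows of 16 of the 65 genes (24.6%), against 5.19% of the 27025 genes with a window. The ETS motif CCGGAAG was present in 16 of the 65 (24.6%), against 9.93% of all genes, and the YY1 motif AAGATGGC in 10 (15.4%), against 3.19%. At least 1 of the 3 was present in 36 of the 65 subunit genes (55.4%), against 16.4% of all genes, and no match of 1 motif overlapped a match of another. A match is a description of the letters and not a binding site. The 6 stretches below are the 120 bases just before the start of genes described further on, 5′ to 3′ on the gene's own strand, with the motif in capitals. The first 3 belong to genes that fell in the Ifnar-/- sample and hold an NRF1 motif, the next 2 to genes that were lower in the Ifnar-/- sample than in the sLTβR-Fc sample and hold an ETS motif, and the last to Ndufv3, which was high in the sLTβR-Fc sample and has none of the 3 motifs in its window. They were picked to show the motifs, which are also absent from genes that moved the same way and present in genes that moved the other way. Of the 7 genes that fell in the Ifnar-/- sample 3 hold an NRF1 motif, those printed, while Atp5b, Cox6b2, Ndufb8 and Ndufc2 do not, and of the 2 that rose there Ndufa6 holds one and Atp5e an ETS motif. Of the 4 genes with a window that rose in the sLTβR-Fc sample, Ndufa11 holds an NRF1 motif. Of the 5 with a window that were lower in the Ifnar-/- than in the sLTβR-Fc sample, 2 hold an ETS motif, those printed, and Cox7a2, Ndufb3 and Ndufb8 do not. The YY1 motif is present in 2 of the 7 that fell in the Ifnar-/- sample, Ndufb8 and Ndufs6, and in 1 of these 5, Ndufb8. That of Ndufs6 lies after the start, outside the printed stretch.
Ndufs6, chr13:73328483-73328602, minus strand: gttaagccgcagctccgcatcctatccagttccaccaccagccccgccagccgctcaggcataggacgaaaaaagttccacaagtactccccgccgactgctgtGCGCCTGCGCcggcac
Atp5g2, chr15:102671048-102671167, minus strand: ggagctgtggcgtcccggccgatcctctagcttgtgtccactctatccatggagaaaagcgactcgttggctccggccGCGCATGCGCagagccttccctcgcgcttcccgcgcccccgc
Ndufa5, chr6:24527691-24527810, minus strand: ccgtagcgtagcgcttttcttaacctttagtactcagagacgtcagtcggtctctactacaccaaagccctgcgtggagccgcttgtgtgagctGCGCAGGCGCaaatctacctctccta
Cox6b1, chr7:30626115-30626234, minus strand: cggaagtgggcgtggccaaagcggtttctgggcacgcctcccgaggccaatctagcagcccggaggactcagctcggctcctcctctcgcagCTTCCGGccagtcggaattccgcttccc
Uqcr11, chr10:80406822-80406941, minus strand: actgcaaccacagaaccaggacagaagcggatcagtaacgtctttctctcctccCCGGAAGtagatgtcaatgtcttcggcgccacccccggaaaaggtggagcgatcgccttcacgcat
Ndufv3, chr17:31519995-31520114, plus strand: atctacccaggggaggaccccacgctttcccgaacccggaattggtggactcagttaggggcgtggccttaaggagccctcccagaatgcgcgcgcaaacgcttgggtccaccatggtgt

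The arrays were alike in sensitivity but not in brightness. The share of probes above background was 52.9% in the Ifnar-/- sample, 52.6% in the sLTβR-Fc sample and 53.8% and 53.1% on the control arrays, while the upper quartile as deposited was 156, 146, and 188 and 179 in the same order of arrays. Correlations were taken on quantile-normalised log2 values of the 14698 genes compared, each by its brightest probe. They were 0.969 and 0.977 between the Ifnar-/- array and the controls, 0.972 and 0.974 between the sLTβR-Fc array and the controls, and 0.993 between the controls. Intensities below are quantile normalised, in arbitrary units, and a difference is in log2 units against the mean of the 2 controls, with the SE of the fit. Background remains in the values, so differences of dim probes are understated.

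In the Ifnar-/- sample the oxidative phosphorylation genes lay slightly lower than on the controls, and in the sLTβR-Fc sample slightly higher, the second of these directions only under some scalings. The median difference of the 81 genes was -0.06 in the Ifnar-/- sample, beside 0.02 for all 14698 genes compared, and 0.12 in the sLTβR-Fc sample, beside 0.02 for all genes. With the intensities as deposited the medians of the 81 genes were -0.34 and -0.42, beside -0.14 and -0.21 for all genes, and with each array scaled to the same median they were -0.09 and 0.02, beside 0.11 and 0.23. The genes were therefore below the median of all genes in the Ifnar-/- sample under all 3 of these scalings, by 0.08, 0.20 and 0.20, and in the sLTβR-Fc sample they were above it by 0.10 after quantile normalisation and below it by 0.21 under either of the other scalings. All genes were not matched to the members for brightness. The position in the Ifnar-/- sample is not particular to the members. Genes of the tricarboxylic acid cycle had medians of -0.01, -0.32 and -0.07 there, in the same order of scalings. Further assembly factors had -0.05, -0.33 and -0.08, while B cell genes, at 0.49, 0.18 and 0.43, were above all genes. The 2 controls differed from each other by a median of -0.03 over the same genes (control 2 minus control 1). Against control 1 alone the median in the Ifnar-/- sample was -0.11 and against control 2 alone -0.05, and in the sLTβR-Fc sample these were 0.09 and 0.14.

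**Figure D1:**
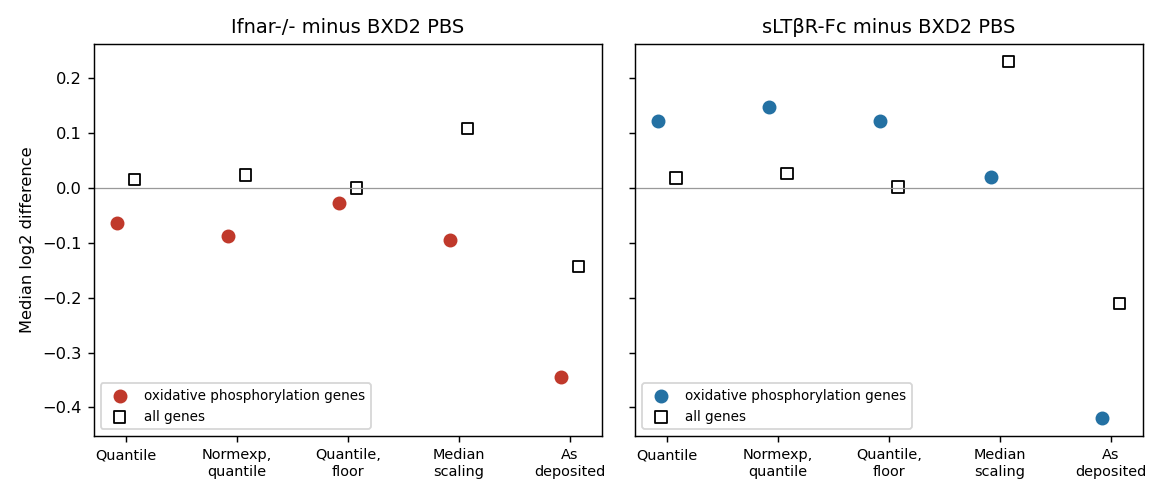
Median log2 difference from the mean of the 2 BXD2 PBS arrays (y axis) for the oxidative phosphorylation genes (filled circles) and for all genes (open squares) under 5 ways of scaling the arrays, in the Ifnar-/- sample (left) and the sLTβR-Fc sample (right). The circles lie below the squares in all 5 on the left, and on the right above the squares in the 3 quantile-normalised settings and below them with median scaling and as deposited.

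Position against the control pair was uneven between the arrays. In the Ifnar-/- sample 23 of the 81 genes were above both controls, where 43% of all genes were, and 38 were below both (46.9%), where 35.1% of all genes were. In the sLTβR-Fc sample 42 of the 81 were above both controls (51.9%), where 43.9% of all genes were, and 21 were below both, where 35.7% were. As deposited, without scaling, 65 of the 81 were below both controls in the Ifnar-/- sample, beside 70.8% of all genes, and 74 in the sLTβR-Fc sample, beside 75.2% of all genes, and with median scaling the counts above and below both were 28 and 40 in the Ifnar-/- sample and 33 and 30 in the sLTβR-Fc sample, beside 57.8% and 24.9%, and 61.5% and 28.6%, of all genes. Few genes lay far out. At least 1.5-fold beyond both controls were Ndufa6 in the Ifnar-/- sample (higher) and Ndufv3 and Ndufb3 in the sLTβR-Fc sample (higher), beside 2.73% of all genes 1.5-fold above both in the Ifnar-/- sample and 3.23% in the sLTβR-Fc sample. No gene was 1.5-fold below both controls on either array, beside 3.22% and 2.37% of all genes.

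The limma fit (two-sided, Benjamini-Hochberg adjusted over all 24091 probes) placed 11 of the 119 member probes past an adjusted p of 0.05 in the Ifnar-/- sample, 2 higher and 9 lower. That is 9.24% of the members, beside 10.8% of all probes (5.21% higher and 5.61% lower). In the sLTβR-Fc sample 8 member probes passed, 7 higher and 1 lower, or 6.72% beside 12.8% of all probes (6.35% higher and 6.44% lower). With the directions pooled, both shares are below those of the array as a whole in this fit, and the calls are given for single genes. The 9 lower calls in the Ifnar-/- sample are 7.56% of the members, beside 5.61% of all probes. As deposited the pooled share there was 19.3%, beside 15.7% of all probes, and with median scaling 11.8%, beside 9.24%. Without the background filter it was 6.72%, beside 6.5%. In the sLTβR-Fc sample it was above that of all probes only as deposited (36.1% beside 32.2%). The only residual degree of freedom comes from the control pair, whose spread stands in for that of each single array. When low intensities were raised to a floor at the background limit the same fit called 0 probes in any comparison. At an unadjusted p under 0.05 it then had 20 and 21 of the 119 member probes, beside 4577 and 5313 of all 24091 probes.

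**Figure D2:**
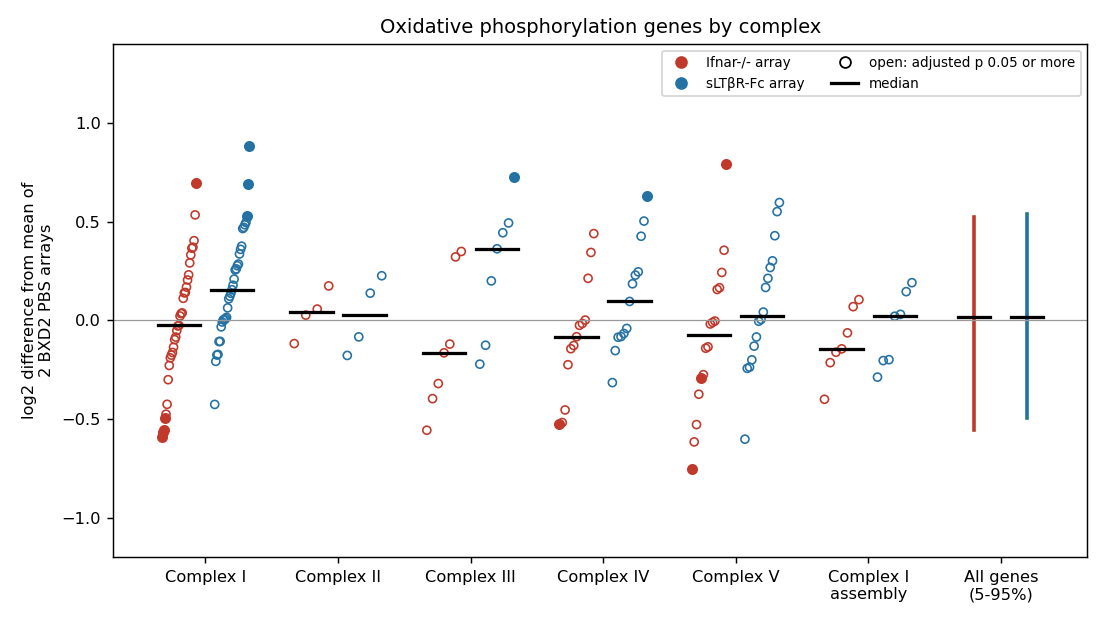
Log2 difference from the mean of the 2 BXD2 PBS arrays (y axis, quantile normalised) for each oxidative phosphorylation gene, by complex (x axis), in the Ifnar-/- sample (red) and the sLTβR-Fc sample (blue), with filled points past an adjusted p of 0.05, bars for medians, and at the right the 5% to 95% range of all genes. The largest gap between the medians is in complex III, -0.16 in the Ifnar-/- sample and 0.36 in the sLTβR-Fc sample, and the blue medians of complexes I, II and V are below 0 with median scaling, and all 5 are below 0 as deposited.

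Complex I is the largest enzyme of the chain, and 33 of its 34 genes here were measured. Its median difference was -0.03 in the Ifnar-/- sample, with 11 genes above and 13 below both controls, and 0.16 in the sLTβR-Fc sample, with 20 above and 6 below (median -0.01 with median scaling and -0.45 as deposited). The core subunits carry the flavin and the iron-sulphur clusters, and the accessory subunits surround them. The 5 core genes measured had a median of -0.03 in the Ifnar-/- sample and -0.01 in the sLTβR-Fc sample, and the 28 accessory genes had -0.003 and 0.19. The difference between them was not tested.

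Ndufa6, an accessory subunit of the LYR family, read 1295 in the Ifnar-/- sample, 957 in the sLTβR-Fc sample, and 808 and 789 on the controls. Only the Ifnar-/- value stands well clear of the pair, and the gene rose there by 0.70 ± 0.22 (SE, adjusted p = 0.0345 in limma). It did not pass with the values as deposited (0.37). Ndufs6, a zinc-binding accessory subunit whose promoter stretch is printed above, read 3463 in the Ifnar-/- sample, 4974 in the sLTβR-Fc sample, and 5168 and 5007 on the controls. It fell in the Ifnar-/- sample by 0.55 ± 0.17 (adjusted p = 0.0227 in limma) and kept that call in 7 of 8 alternative fits, more than any other member called in this comparison. Its second, dimmer probe gave -0.25 there, which did not pass.

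Ndufb8, in the membrane arm, read 3472 in the Ifnar-/- sample, 5267 in the sLTβR-Fc sample, and 5605 and 4886 on the controls, and fell in the Ifnar-/- sample by 0.59 ± 0.17 (adjusted p = 0.0142 in limma). A second probe close to background (132 in the Ifnar-/- sample, 121 in the sLTβR-Fc sample, 144 and 160 on the controls) passed instead in the sLTβR-Fc sample, lower by 0.33 (adjusted p = 0.0289 in limma), where the bright probe gave 0.01. The probes of Ndufb8 therefore disagree. Ndufc2, also of the membrane arm, read 316 in the Ifnar-/- sample, 348 in the sLTβR-Fc sample, and 508 and 431 on the controls. Both single arrays are below the pair, and the fall of 0.57 ± 0.19 in the Ifnar-/- sample was just past the threshold (adjusted p = 0.0499 in limma), with -0.68 against control 1 and -0.45 against control 2. Its difference in the sLTβR-Fc sample was -0.43 (adjusted p = 0.151 in limma), and its second probe, close to background, gave -0.03 and -0.17.

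Ndufa5, an accessory subunit of the matrix arm, was singled out after its values were seen because both of its probes passed. The brighter one read 186 in the Ifnar-/- sample, 262 in the sLTβR-Fc sample, and 271 and 253 on the controls, and the other read 154, 211, and 240 and 208 in the same order of arrays. Only the Ifnar-/- values lie outside the pair on both, and the differences there were -0.49 ± 0.15 and -0.54, with adjusted p of 0.028 and 0.00679 in limma. The brighter probe kept its call in 5 of 8 alternative fits. It lost the call with a floor, with only probes above background on all 4 arrays, and without the mean-variance trend. A dim probe of Ndufab1, the mitochondrial acyl carrier protein, also named after its values were seen because it passed, read 139 in the Ifnar-/- sample, 171 in the sLTβR-Fc sample, and 200.2 and 190.3 on the controls, and fell in the Ifnar-/- sample by 0.49 (adjusted p = 0.0051 in limma). The brightest probe gave -0.47 and another bright one -0.29 (adjusted p = 0.154 and 0.494 in limma), neither past the threshold.

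In the sLTβR-Fc sample the gene of complex I with the largest difference was Ndufv3, an accessory subunit next to the flavoprotein. It read 1326 in the Ifnar-/- sample, 1895 in the sLTβR-Fc sample, and 1002 and 1057 on the controls. Both single arrays are above the pair, the sLTβR-Fc array most, with a rise of 0.88 ± 0.22 (adjusted p = 0.00502 in limma). A second probe read 1392 in the sLTβR-Fc sample, against 747 and 768 on the controls, and gave the same 0.88 (adjusted p = 0.00538 in limma), and another, close to background, gave 0.06. The rise was 0.64 with median scaling, still past the threshold, and 0.20 as deposited, which is not.

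Ndufb3, a membrane-arm subunit, read 465 in the Ifnar-/- sample, 922 in the sLTβR-Fc sample, and 543 and 602 on the controls, so that the 2 single arrays lie on opposite sides of the pair. It rose in the sLTβR-Fc sample by 0.69 ± 0.21 (adjusted p = 0.0262 in limma), a difference of -0.01 as deposited. Ndufa11, another membrane-arm subunit, read 271 in the Ifnar-/- sample, 320 in the sLTβR-Fc sample, and 217 and 226 on the controls, and rose in the sLTβR-Fc sample by 0.53 ± 0.16 (adjusted p = 0.0194 in limma), a difference of -0.04 as deposited. Both missed the threshold with median scaling.

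Among the core subunits Ndufs8, which carries iron-sulphur clusters, read 2322 in the Ifnar-/- sample, 2243 in the sLTβR-Fc sample, and 1512 and 1699 on the controls. Both single arrays are above the pair, by 0.53 ± 0.21 in the Ifnar-/- sample (adjusted p = 0.108 in limma) and 0.48 in the sLTβR-Fc sample (adjusted p = 0.137 in limma), neither past the threshold. As deposited Ndufs8 read 1616 in the sLTβR-Fc sample, below the 1872 and 1878 of the controls, and 2178 in the Ifnar-/- sample, above them. Ndufv1, which binds NADH and the flavin, gave -0.19 and -0.11, and Ndufs3 0.14 and -0.18 in the Ifnar-/- and sLTβR-Fc samples. Of the accessory subunits, Ndufa10 gave -0.18 and -0.21, and Ndufb10 0.40 and 0.26 in the same order of samples. None of these differences was past the threshold. Ndufs1, the large iron-sulphur subunit, was not above background on any array (98.9 in the Ifnar-/- sample, 99.6 in the sLTβR-Fc sample, 107 and 104 on the controls), and gives no comparison.

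**Figure D3:**
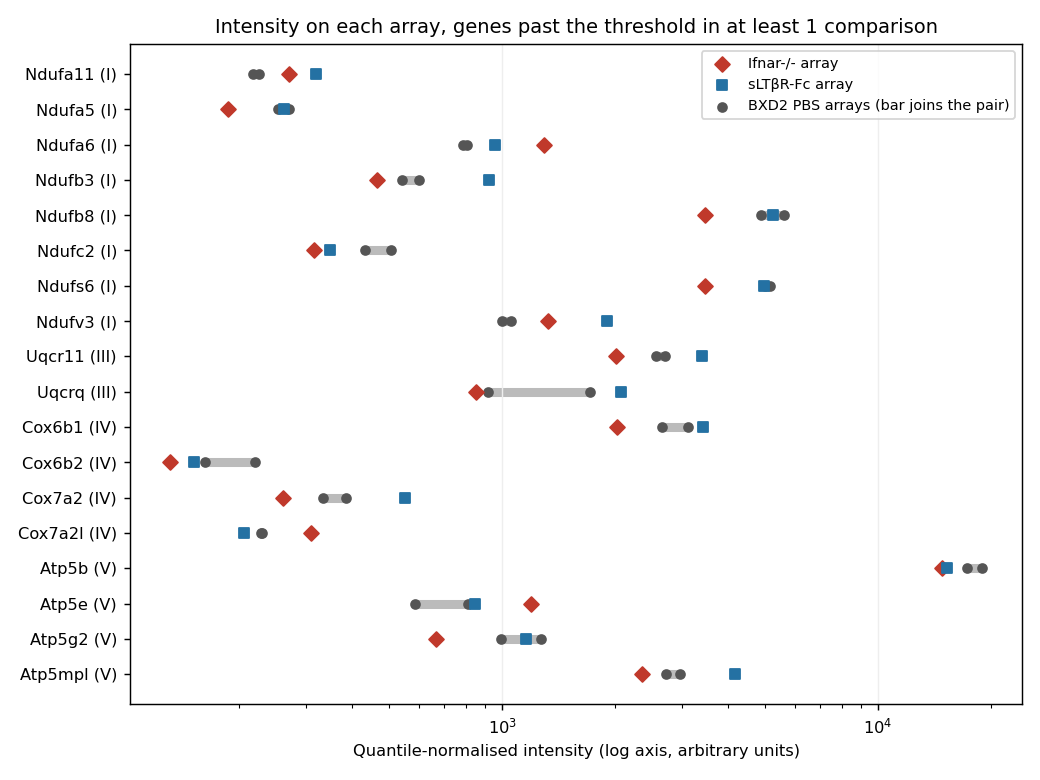
Quantile-normalised intensity (x axis, log scale, arbitrary units) in the Ifnar-/- sample (diamonds), the sLTβR-Fc sample (squares) and the 2 BXD2 PBS arrays (circles joined by a bar) for the 18 genes whose brightest probe passed an adjusted p of 0.05 in at least 1 comparison, with the complex in brackets. For Uqcrq the bar is long (1710 and 919). For Uqcrq, Ndufb3, Uqcr11, Cox7a2, Cox6b1 and Atp5mpl the diamond lies below the bar in value and the square above it, and for Cox7a2l the reverse. As deposited, the sLTβR-Fc values of the genes with the low diamond are not above both controls.

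Complex II, the only complex encoded wholly in the nucleus, stayed close to the controls on both arrays, with medians of 0.04 in the Ifnar-/- sample and 0.03 in the sLTβR-Fc sample over its 4 genes (0.03 and -0.06 with median scaling, -0.22 and -0.50 as deposited). Sdhb, the iron-sulphur subunit, read 729 in the Ifnar-/- sample, 710.5 in the sLTβR-Fc sample, and 606 and 687 on the controls, slightly above the pair on both, by 0.17 ± 0.22 and 0.14 ± 0.22, with an adjusted p of 0.711 and 0.743 in limma. One of its further probes, close to background (154 in the Ifnar-/- sample, 168 in the sLTβR-Fc sample, 134 and 135 on the controls), was higher in the sLTβR-Fc sample by 0.32 (adjusted p = 0.0429 in limma). Sdhc, a membrane anchor, gave -0.12 in the Ifnar-/- sample and 0.23 in the sLTβR-Fc sample, and Sdhd, the other anchor, 0.03 and -0.18, none past the threshold. Sdha, the flavoprotein, read 115, 105, and 116 and 106 in the order Ifnar-/-, sLTβR-Fc and controls, and was above background on only 2 of the 4 arrays.

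In complex III, after quantile normalisation, the medians against the controls lay farther apart between the 2 single arrays than in any other complex, although the median of its direct differences between these arrays, -0.14, was smaller in size than those of complexes I and IV. Its 7 genes had a median of -0.16 in the Ifnar-/- sample, with 2 above and 4 below both controls, and 0.36 in the sLTβR-Fc sample, with 5 above and 2 below (0.21 with median scaling, -0.23 as deposited). Uqcrq, a small membrane subunit, read 853 in the Ifnar-/- sample, 2072 in the sLTβR-Fc sample, and 1710 and 919 on the controls. The controls themselves differ 1.86-fold, and the sLTβR-Fc value is above both and the Ifnar-/- value below both. The rise of 0.72 ± 0.25 in the sLTβR-Fc sample was just past the threshold (adjusted p = 0.0498 in limma) and rests on control 2, with 0.28 against control 1 and 1.17 against control 2, and with 0.03 as deposited. In the Ifnar-/- sample Uqcrq differed by -0.56 ± 0.25 (adjusted p = 0.174 in limma).

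After quantile normalisation Uqcr10 and Uqcr11, also small subunits, were below the pair in the Ifnar-/- sample and above it in the sLTβR-Fc sample. Uqcr11 read 2009 in the Ifnar-/- sample, 3399 in the sLTβR-Fc sample, and 2718 and 2570.4 on the controls, or -0.40 and 0.36. Uqcr10 read 3939, 5648, and 4867 and 4965 in the same order of arrays, or -0.32 and 0.20. None of these differences passed against the controls. As deposited, both genes were below both controls in the sLTβR-Fc sample too. Uqcr11 read 2569 there against 3356 and 2817, and Uqcr10 4501 against 5918 and 5361. The core proteins each had 1 sign on both single arrays after quantile normalisation. Uqcrc1 read 2952 in the Ifnar-/- sample, 3262 in the sLTβR-Fc sample, and 2087 and 2572 on the controls, above the pair on both (0.35 and 0.49), and Uqcrc2 gave -0.12 and -0.22. Uqcrh, the hinge protein that meets cytochrome c1, gave 0.32 and 0.44, and Uqcrfs1, the Rieske iron-sulphur protein, gave -0.16 and -0.13 at intensities near background (116 in the Ifnar-/- sample, 119 in the sLTβR-Fc sample, 128 and 131 on the controls).

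In complex IV, 13 of the 16 genes were measured, with a median of -0.08 in the Ifnar-/- sample (3 above and 7 below both controls) and 0.10 in the sLTβR-Fc sample (7 above and 4 below), the sLTβR-Fc median being 0.06 with median scaling and -0.38 as deposited. Cox7a2, the widely expressed isoform of the VIIa subunit, read 262 in the Ifnar-/- sample, 553 in the sLTβR-Fc sample, and 385 and 333 on the controls. The 2 single arrays lie on opposite sides of the pair. It rose in the sLTβR-Fc sample by 0.63 ± 0.19 (adjusted p = 0.0203 in limma), which was 0.40 and not past the threshold with median scaling and -0.04 as deposited, and differed in the Ifnar-/- sample by -0.45 (adjusted p = 0.127 in limma). Cox7a2l, a related protein that joins complexes III and IV into supercomplexes, lay the other way, at 311 in the Ifnar-/- sample, 206 in the sLTβR-Fc sample, and 228 and 230.5 on the controls, or 0.44 ± 0.15 (adjusted p = 0.0549 in limma) and -0.15.

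Cox6b1, the widely expressed isoform of the VIb subunit, read 2017 in the Ifnar-/- sample, 3424 in the sLTβR-Fc sample, and 3127 and 2665 on the controls, below and above the pair by -0.52 (adjusted p = 0.0904 in limma) and 0.25. Its testis isoform Cox6b2, dim here, read 131 in the Ifnar-/- sample, 152 in the sLTβR-Fc sample, and 220 and 162 on the controls. It fell in the Ifnar-/- sample by 0.53 ± 0.13 (adjusted p = 0.00512 in limma), by 0.75 against control 1 and by 0.30 against control 2. Cox4i1, the main isoform of subunit IV, lay between the controls on both arrays (6481 in the Ifnar-/- sample, 6176 in the sLTβR-Fc sample, 7195 and 5963 on the controls). Of the remaining genes Ndufa4, first described in complex I, gave 0.34 and 0.23 in the Ifnar-/- and sLTβR-Fc samples, Cox7b 0.21 and 0.43, Cox6a1 -0.08 and 0.50, Cox5a -0.02 and 0.19, and Cox6c -0.22 and -0.07, none past the threshold. The other isoforms known from particular tissues gave few values to compare. Cox4i2, Cox7b2 and Cox8c were not above background on any array, and Cox7a1 and Cox8b, the forms of heart and skeletal muscle, on only 1 array each.

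All 16 genes of complex V were measured, with a median of -0.08 in the Ifnar-/- sample (5 above and 7 below both controls) and 0.02 in the sLTβR-Fc sample (7 above and 5 below), the second being -0.09 with median scaling and -0.53 as deposited. Genes of the catalytic head moved in both directions. Atp5e, the epsilon subunit, read 1192 in the Ifnar-/- sample, 849 in the sLTβR-Fc sample, and 810.3 and 586 on the controls, and rose in the Ifnar-/- sample by 0.79 ± 0.23 (adjusted p = 0.0182 in limma), by 0.56 against control 1 and 1.02 against control 2. It did not pass with the values as deposited (0.46) or without the mean-variance trend. Atp5b, the catalytic beta subunit, read 14769 in the Ifnar-/- sample, 15256 in the sLTβR-Fc sample, and 17260 and 18876 on the controls. Both single arrays are below the pair, and the small fall of 0.29 ± 0.10 passed in the Ifnar-/- sample (adjusted p = 0.0416 in limma), with -0.22 against control 1 and -0.35 against control 2, but not the difference of -0.24 in the sLTβR-Fc sample (adjusted p = 0.0904 in limma). It kept its call in only 3 of 8 alternative fits. The alpha subunit, Atp5a1, lay between the controls, the gamma subunit, Atp5c1, gave 0.24 and 0.01 in the Ifnar-/- and sLTβR-Fc samples, and the delta subunit, Atp5d, gave 0.36 and 0.43, neither gene past the threshold.

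In the membrane part and stalk of complex V the gene with the largest difference was Atp5g2, which encodes subunit c, the protein of the rotating ring. It read 667 in the Ifnar-/- sample, 1159 in the sLTβR-Fc sample, and 1271 and 996 on the controls, and fell in the Ifnar-/- sample alone, by 0.75 ± 0.23 (adjusted p = 0.024 in limma), by 0.93 against control 1 and by 0.58 against control 2. Atp5g3, another gene for the same mature protein, gave -0.14 in the Ifnar-/- sample and -0.24 in the sLTβR-Fc sample. Atp5pb, of the peripheral stalk, read 707 in the Ifnar-/- sample, 714 in the sLTβR-Fc sample, and 1491 and 787 on the controls, which differ 1.89-fold, and its differences of -0.62 and -0.60 did not pass (adjusted p = 0.126 and 0.12 in limma). Its 3 further probes, near background, had medians of 0.01 and -0.01. Atp5mpl, a small membrane protein of the complex, read 2352 in the Ifnar-/- sample, 4169 in the sLTβR-Fc sample, and 2974 and 2721 on the controls, and its 0.55 ± 0.19 in the sLTβR-Fc sample was at the threshold (adjusted p = 0.0501 in limma), being -0.05 as deposited. Atp5md, likewise small, gave 0.17 and 0.60 in the Ifnar-/- and sLTβR-Fc samples, and Atp5k, the e subunit, gave -0.53 and -0.004 with controls that differ 1.59-fold.

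The 7 measured assembly factors of complex I, which help to build the enzyme and are not part of it, had medians of -0.14 in the Ifnar-/- sample and 0.02 in the sLTβR-Fc sample, and none passed the threshold. Ndufaf1 was below both controls on both arrays, at 725 in the Ifnar-/- sample, 783 in the sLTβR-Fc sample, and 988 and 925 on the controls, or -0.40 and -0.29. Ndufaf2, Ndufaf3, Ndufaf4, Ndufaf5 and Ndufaf8 gave -0.21, -0.16, 0.11, 0.07 and -0.14 in the Ifnar-/- sample, and 0.15, 0.03, -0.20, -0.20 and 0.19 in the sLTβR-Fc sample. Ndufaf6 was not above background on any array and Ndufaf7 on 1.

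Set directly against each other, more of these genes were lower than higher in the Ifnar-/- sample relative to the sLTβR-Fc sample after quantile normalisation, a direction that turned with the values as deposited. Of the 81 genes 56 were lower (69.1%) and 25 were higher, where 51.5% of all genes were lower. With median scaling 51 were lower (63%), beside 65.9% of all genes, and as deposited 34 were lower and 47 higher (58%), beside 58.4% of all genes that were higher. The median over the 81 genes was -0.14 after quantile normalisation, beside -0.01 for all genes, -0.10 with median scaling, beside -0.14, and 0.09 as deposited, beside 0.05. Of these 3 scalings, quantile normalisation was the only one in which the members lay below the median of all genes. By complex the quantile-normalised median was -0.19 in I, 0.09 in II, -0.14 in III, -0.16 in IV and -0.09 in V, and as deposited it was 0.11, 0.26, -0.06, -0.08 and 0.10 in the same order of complexes. After quantile normalisation the number lower was 21 of 33 in complex I, 1 of 4 in II, 6 of 7 in III, 10 of 13 in IV and 12 of 16 in V. The fit placed 8 of the 119 member probes past the threshold, 7 lower and 1 higher (6.72%, beside 7.85% of all probes, of which 3.89% higher and 3.96% lower). This contrast rests on 1 array a group, with an error taken from the controls.

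The 7 genes lower in the Ifnar-/- sample than in the sLTβR-Fc sample encode subunits of complexes I, III, IV and V, and their intensities are given above. Uqcrq differed by -1.28 ± 0.29 (adjusted p = 0.00261 in limma), Cox7a2 by -1.08 ± 0.22 (adjusted p = 0.00058) and Ndufb3 by -0.99 ± 0.25 (adjusted p = 0.00706). Atp5mpl differed by -0.83 ± 0.22 (adjusted p = 0.013 in limma), Cox6b1 by -0.76 ± 0.23 (adjusted p = 0.0288), Uqcr11 by -0.76 ± 0.23 (adjusted p = 0.0301) and Ndufb8 by -0.60 ± 0.19 (adjusted p = 0.0441). Cox7a2l was the gene that was higher, by 0.59 ± 0.18 (adjusted p = 0.0274 in limma). With the values as deposited only Cox7a2l passed, and with median scaling Uqcrq, Cox7a2, Ndufb3 and Atp5mpl did, while all 7 kept a negative difference under both. Of the 7, 3 have a second probe above background on at least 1 array. That of Cox6b1 gave -0.52, while those of Atp5mpl and Ndufb8, near background, gave 0.03 and 0.13.

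**Figure D4:**
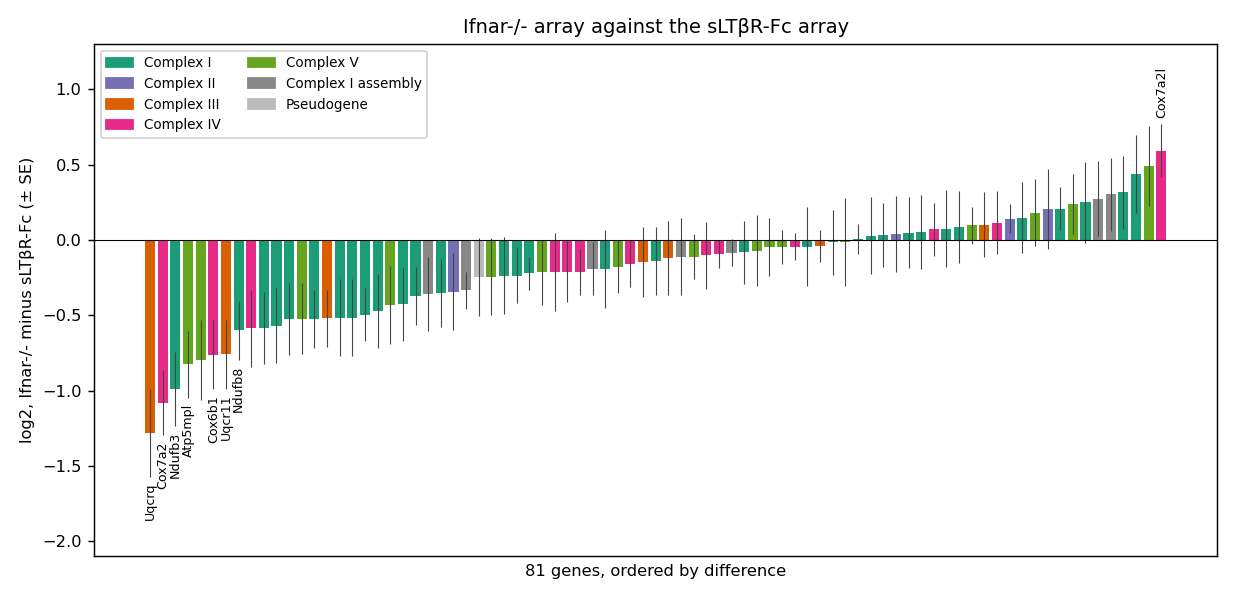
Log2 difference of the Ifnar-/- array from the sLTβR-Fc array (y axis, quantile normalised, bars from 0, lines ± SE of the fit) for the 81 measured genes in order of the difference (x axis), coloured by complex, with the names of those past an adjusted p of 0.05. Bars below 0 belong to 56 genes and bars above 0 to 25, with Uqcrq at -1.28 and Cox7a2l at 0.59 as the outermost, while with the values as deposited 34 of the genes were lower and 47 higher.

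Other mitochondrial genes were set beside the subunits. The 8 mitochondrially encoded subunit genes with a measured probe had a median of -0.004 in the Ifnar-/- sample and -0.28 in the sLTβR-Fc sample, where the 73 nuclear subunit genes had -0.03 and 0.14. With median scaling the 2 lists gave -0.14 and 0.05 in the sLTβR-Fc sample and as deposited -0.58 and -0.39, so the mitochondrially encoded list was the lower in all 3. Of the 8, 3 fell in the sLTβR-Fc sample, all of complex I. ND1 read 19445 in the Ifnar-/- sample, 13223 in the sLTβR-Fc sample, and 19311 and 17510 on the controls, and fell in the sLTβR-Fc sample by 0.48 ± 0.09 (adjusted p = 0.000309 in limma). ND4 read 14458, 11223, and 15524 and 16545 in the same order of arrays, and fell there by 0.51 ± 0.10 (adjusted p = 0.00032 in limma). ND4L, much dimmer, also fell there, by 0.39, and in the Ifnar-/- sample by 0.69. ATP6, CYTB, COX2, ND5 and ND6 did not pass on either array.

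The electron carrier list (cytochrome c, cytochrome c1, the electron transfer flavoprotein and ubiquinone synthesis) had medians of -0.14 in the Ifnar-/- sample and 0.08 in the sLTβR-Fc sample over 12 genes. Its sLTβR-Fc median was -0.06 with median scaling and -0.50 as deposited. Etfb, a subunit of the electron transfer flavoprotein, read 2541 in the Ifnar-/- sample, 5046 in the sLTβR-Fc sample, and 2889 and 2527 on the controls, and rose in the sLTβR-Fc sample by 0.90 ± 0.19 (adjusted p = 0.000775 in limma), and Coq3, of ubiquinone synthesis, fell there by 0.42. As deposited Etfb stood closer to the controls, at 4003 in the sLTβR-Fc sample against 3596 and 2776. Over 16 genes of the tricarboxylic acid cycle the medians were -0.01 and -0.09, with Suclg2, a subunit of succinyl-CoA ligase, higher in the Ifnar-/- sample (0.51) and no other call. The 36 further assembly factors had medians of -0.05 and -0.03, with 3 that fell in the Ifnar-/- sample, Atpaf2, which builds the head of complex V (-0.91), Cox18 (-0.65) and Tmem70 (-0.50). In the sLTβR-Fc sample Timmdc1 rose (0.60) and Ttc19 (-0.51) and Fastkd3 (-0.44) fell, all 6 named after their values were seen. As deposited Timmdc1 read 216 in the sLTβR-Fc sample, close to the 193 and 212 of the controls.

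Over 20 regulators of mitochondrial gene expression the medians were -0.05 in the Ifnar-/- sample and -0.23 in the sLTβR-Fc sample (-0.16 with median scaling, -0.60 as deposited). Gabpb2, which encodes a subunit of the ETS factor GABP, read 298 in the Ifnar-/- sample, 190 in the sLTβR-Fc sample, and 420.4 and 439 on the controls, lower on both by 0.53 and 1.18 (adjusted p = 0.0439 and 3.81e-06 in limma). Lrpprc, which stabilises mitochondrially encoded transcripts, read 291 in the Ifnar-/- sample, 281 in the sLTβR-Fc sample, and 456 and 449 on the controls, lower on both by 0.64 and 0.69 (adjusted p = 0.0164 and 0.00839 in limma). In the Ifnar-/- sample Pprc1 also fell (-0.59) and Ppargc1a, which encodes the coactivator PGC-1α, rose (0.35), at 176 in the Ifnar-/- sample, 119 in the sLTβR-Fc sample, and 131 and 146 on the controls. The 74 mitochondrial ribosomal proteins had medians of -0.01 and 0.08, and the 60 cytosolic ones 0.003 and -0.06.

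**Figure D5:**
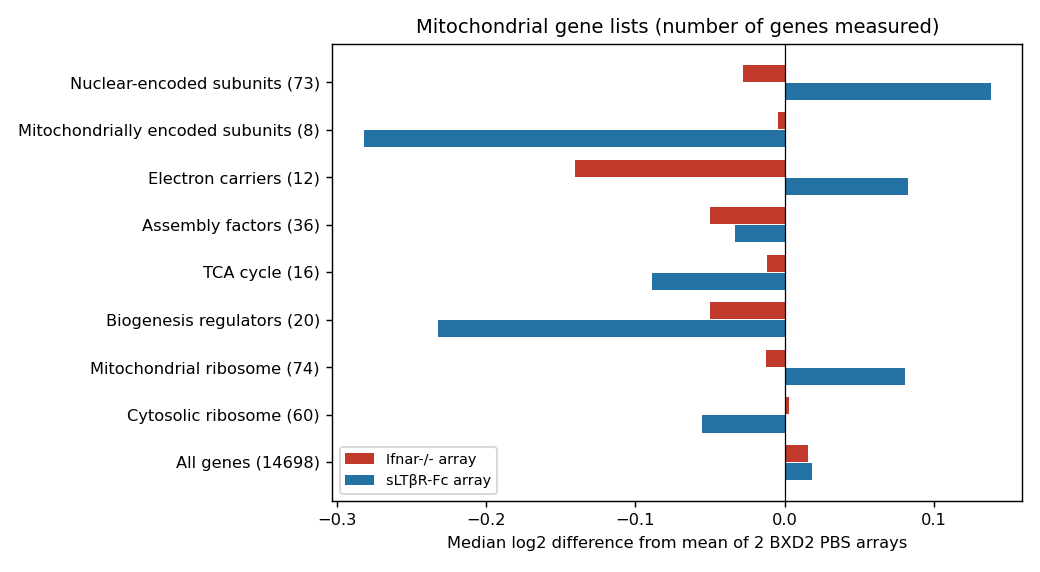
Median log2 difference from the mean of the 2 BXD2 PBS arrays (x axis, quantile normalised) in the Ifnar-/- sample (red) and the sLTβR-Fc sample (blue) for the nuclear subunit genes and other gene lists (rows, number of genes measured in brackets), with all genes in the last row. The nuclear subunits stand at -0.03 and 0.14 and the mitochondrially encoded subunits at -0.004 and -0.28, and with the values as deposited the bars of both lists in the sLTβR-Fc sample are negative.

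Markers of other cells moved between the same arrays, and in such samples fewer cells of a type and less RNA per cell cannot be told apart. Cd209b, which encodes the sorted antigen SIGN-R1, was near background (152 in the Ifnar-/- sample, 145 in the sLTβR-Fc sample, 127 and 130.1 on the controls), while H2-Ab1, which encodes a chain of the I-A molecule the sort selected against, was bright (16289, 9488, and 8662 and 8305 in the same order of arrays) and higher in the Ifnar-/- sample by 0.94 (adjusted p = 1.44e-07 in limma). Adgre1, which encodes F4/80, also selected against, read 1017 in the Ifnar-/- sample, 631 in the sLTβR-Fc sample, and 629 and 306 on the controls, and was higher in the Ifnar-/- sample by 1.21 (adjusted p = 0.000692 in limma). In the Ifnar-/- sample all 17 measured cell cycle genes were below both controls (median -0.51), as were 10 of 11 neutrophil genes (-0.86), 5 of 7 erythroid genes (-1.14), and 6 of 7 T cell genes (-0.50). Above both controls there were 7 of 8 dendritic cell genes (0.80, 6 of them past the threshold), 4 of 6 NK cell genes (0.60) and all 8 B cell genes (0.49, 5 of 8 as deposited). These medians kept their sign with median scaling and as deposited. In the sLTβR-Fc sample 5 of 6 eosinophil genes were above both controls (2.41) and all 7 T cell genes below both (-0.68). The 7 measured genes of the marginal zone macrophage list, which holds Cd209b, moved both ways. In the Ifnar-/- sample their median was 0.10, from -1.48 to 2.34, with 3 above and 2 below both controls. In the sLTβR-Fc sample it was 0.07, from -0.46 to 0.30, with 3 above and 0 below. As deposited both of these medians were -0.11. Summed intensities were 9678, 16351, and 17596 and 16753 for the cell cycle list in the order Ifnar-/-, sLTβR-Fc and controls, 17878, 70218, and 50518 and 34907 for the neutrophil list, 2614, 3588, and 8521 and 4105 for the erythroid list, and 23477, 10988, and 16050 and 15282 for the B cell list. They were 4447, 28056, and 5212 and 5901 for the eosinophil list, and 8348, 6957, and 10575 and 12549 for the T cell list, 6294, 3803, and 4496 and 4263 for the dendritic cell list, and 16882, 15577, and 16749 and 17640 for the NK cell list. No marker is at 0, since background remains in the values, and the part of these cells in the oxidative phosphorylation values was not tested.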

How the data were processed

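Per the labels' protocols, total RNA of the sorted macrophages was isolated with Trizol and made into biotinylated cRNA (Ambion MessageAmp) for Illumina arrays of 1 colour. GenomeStudio 2011.1 is named in the submitters' processing notes. The deposited values are linear intensities, 1 per probe and array, and any background subtraction or scaling was not given in the sources used here. Detection p-values were not used here. Symbols came from the platform annotation, in which 34885 probes have 1 symbol, 18 several and 10378 none.

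Each array's background was the most frequent intensity, with the spread below it mirrored, and a probe passed above its 95% point (limits of 106, 108, and 113 and 115.5 on the Ifnar-/-, sLTβR-Fc and control arrays). Intensities were quantile normalised and converted to log2 with no floor, and the 24091 probes with 1 symbol above background on at least 1 array were fitted in limma 3.58.1 (R 4.3.3) as 3 group means over 4 arrays, with eBayes and a mean-variance trend (1 residual and 40.9 prior degrees of freedom) and Benjamini-Hochberg adjustment to 0.05. The fit was tested on simulated data. The precision is limited by the number of arrays.

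The members and lists were chosen with earlier results of these data known. Named genes are the 3 highest and 3 lowest per complex and comparison outside both controls, those 1.5-fold beyond both, a fixed set of defining subunits and isoforms, and at most 4 genes of each other list, by size. Members outside this rule (Ndufa5, Ndufab1, Sdhd, Cox7b2, Ndufaf6 and Ndufaf7) and genes of other lists named because they passed the threshold, or beyond 4 in a list, were chosen after their values were seen. Alternatives were other scalings, normexp with an offset of 50, a floor of 111, other filters, no trend, 1 probe a gene, and each control left out. Promoter windows are RefSeq's.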

Additional observations from a re-analysis of the deposited data

How the results depend on the processing

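The main counts of member probes past the threshold were 11 (Ifnar-/- against controls), 8 (sLTβR-Fc against controls) and 8 (Ifnar-/- against sLTβR-Fc). In that order they were 23, 43 and 1 as deposited (19.3%, 36.1% and 0.84% of members, beside 15.7%, 32.2% and 5.7% of all probes). With a floor they were 0, 0 and 0 (prior degrees of freedom 0.858). At an unadjusted p under 0.05 the floor gave 20, 21 and 20 member probes, beside 4577, 5313 and 5058 of all 24091 probes. Without a trend the calls were 2, 4 and 4 (1.68%, 3.36% and 3.36%, beside 5.7%, 5.4% and 3.06% of all probes). With median scaling they were 14 (11.8%, beside 9.24% of all probes), 19 (16%, beside 42.6%, with 3 of the 19 among the main calls) and 4 (3.36%, beside 5.83%). The cause was not tested. The median of the members was -0.34 (as deposited), -0.094 (median scaling), -0.088 (normexp) and -0.028 (floor) in the Ifnar-/- sample, and -0.42 (as deposited), 0.021 (median scaling), 0.15 (normexp), 0.080 (no filter) and 0.074 (mean of all probes) in the sLTβR-Fc sample. Leaving out 1 control gave -0.11 to -0.050 and 0.087 to 0.14, as values with no test, since no residual degree of freedom is left. Filters and 1 probe a gene kept the counts of calls within 1.5 times the main ones.

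As deposited, with the median of all genes at -0.14 in the Ifnar-/- sample and -0.21 in the sLTβR-Fc sample, signs turned in the Ifnar-/- sample for Atp5c1 (-0.074), Cox7b (-0.11), Ndufa4 (-0.014), Ndufaf4 (-0.19) and Sdhb (-0.13). They turned in the sLTβR-Fc sample for Atp5d (-0.21), Atp5md (-0.11), Atp5mpl (-0.052), Cox6a1 (-0.20), Cox7a2 (-0.036), Cox7b (-0.28), Ndufa11 (-0.036), Ndufaf8 (-0.078), Ndufb3 (-0.0071), Sdhb (-0.54), Sdhc (-0.46), Uqcrc1 (-0.14) and Uqcrh (-0.23). With median scaling they turned there for Cox6c (0.058), Sdhb (-0.10), Sdhc (-0.023) and Uqcrfs1 (0.21). Of these, Cox7a2, Ndufa11 and Ndufb3 had passed the threshold after quantile normalisation. Genes outside that list turned too. In the sLTβR-Fc sample Cox5a, Cox6b1, Ndufa4, Ndufb10, Ndufs8, Uqcr10 and Uqcr11, among others, were above both controls after quantile normalisation and below both as deposited. The same held for Ndufs3 in the Ifnar-/- sample.

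No paired analysis was possible because the groups share fewer than 2 replicate numbers.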
